A study of Mus musculus with 8 samples.

Results

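Glucocorticoids are steroid hormones of the adrenal cortex that cross the cell membrane and bind the glucocorticoid receptor, which is held ready by heat-shock chaperones in the cytoplasm. The bound receptor moves to the nucleus, binds short palindromic DNA elements and raises the transcription of a set of target genes, while it lowers many inflammatory genes. In lymph nodes this hormone limits inflammation and can kill lymphocytes, and its level in blood follows the day and rises with stress.

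The data described here are the messenger RNA levels of such genes in the lymph node that receives the lymph of the pancreas. The set was named as Tsc22d3, Fkbp5, Per1, Sgk1, Zbtb16, Klf9, Nr3c1, Hsd11b1, Cdkn1a and Ddit4, and all array probes carrying these names were taken, with their ratio of knockout over wild type on every array. The genes were chosen by name with their measured knockout over wild-type ratios at 4, 12 and 30 weeks already known, so these ratios are given as a description, without a test. Sgk1 stands in the files under its older name Sgk and was found through its accession. No probe was matched to Zbtb16, which is not analysed here. This left 18 probes for 9 genes, out of 41174 probes, and 17 of the 18 passed the filter on dim probes, so that 9 of the 18410 genes tested belong to the set. Each gene is described by its brightest probe unless another is named.

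Knockout mice lacked Deaf1, a transcription factor, on the BALB/c background, and the controls were wild-type littermates. Each of 8 microarrays of 2 colours carried node RNA from 1 knockout mouse in Cy5 and pooled wild-type RNA of the same age in Cy3, with 2 arrays at 4 weeks and a pool of 2 mice, 3 arrays at 12 weeks and a pool of 3 mice, and 3 arrays at 30 weeks and a pool of 3 mice. The dyes were never swapped, so a dye bias cannot be told apart from the knockout effect in any ratio. No wild-type mouse was set against the pool, so the spread between wild-type mice is in none of the values. The labels give neither the sex of the mice nor the part of Deaf1 that was deleted nor the hour at which tissue was taken. That arrays of an age share 1 pool is an assumption, and the 4-week arrays had a slide and a scanner of their own, so age, pool and slide cannot be told apart between 4 weeks and the later ages.

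Between 37.2% and 62.6% of all probes stood well above background in Cy3, and between 46.8% and 71.4% did in Cy5, and the number of arrays limits the precision. The brightest Deaf1 probe had log2 ratios of −0.22 and −0.12 at 4 weeks, 0.34, 0.35 and 0.32 at 12 weeks and 0.14, 0.00 and 0.15 at 30 weeks. Another Deaf1 probe that passed the filter had −0.29 and −0.10, then 0.12, 0.15 and 0.18, then −0.74, 3.11 and −0.62 at these ages. The ratios of these probes thus do not check the genotype. All 10 T cell markers and all 7 B cell markers were above background in both channels on every array apart from replicate 2 of 4 weeks, where 9 T cell markers and 6 wild-type and 7 knockout B cell markers were. Pancreatic acinar markers had median ratios of −4.32, 4.03 and −4.58 in replicates 1, 2 and 3 of 30 weeks, so those nodes differed widely from their pool in acinar RNA. Xist, expressed from the inactive X chromosome of females, had a ratio of 5.32 in replicate 2 of 12 weeks, and the Y-linked Eif2s3y one of −4.86, so this mouse differed from its pool in genes that differ between the sexes. The part of these differences in the values below was not tested, and fewer cells of a type and less RNA per cell cannot be told apart in whole nodes.

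Tsc22d3, which encodes GILZ, a leucine zipper protein that carries part of the anti-inflammatory action of glucocorticoids in lymphocytes, had the lowest mean ratio of the 9 genes at each age. Its log2 ratio of knockout over wild type was −1.74, −1.13 and −1.83 in replicates 1, 2 and 3 of 30 weeks. All 3 nodes thus lay well below their pool, with a mean of −1.57 (SD 0.38, n = 3), a 2.96-fold lower level. At 12 weeks the ratios were −0.40, −1.59 and 0.04, a mean of −0.65 (SD 0.84, n = 3), and the SD exceeds the mean because replicate 2 alone was far below 0. Without replicate 2 the 12-week mean was −0.18 (SD 0.31, n = 2). At 4 weeks the values were −1.29 and −0.29, both below 0 and far apart, with a mean of −0.79 (SD 0.71, n = 2). The 30-week and 12-week ranges overlapped through replicate 2 of 12 weeks. Centring each array on its median without loess, called median centring here, moved the median of all genes to 0.49, 0.41 and 0.15 at 4, 12 and 30 weeks. With it Tsc22d3 stood at 0.11, 0.12 and −1.15, so its ratio was below 0 under both scalings at 30 weeks only, and below the median of all genes at each age.

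The spread of Tsc22d3 came from the knockout channel. Its wild-type log2 level was 12.94, 12.97 and 12.96 on the 3 arrays of 12 weeks, whereas the knockout level was 12.55, 11.38 and 13.00. At 30 weeks the wild-type level was 12.80, 12.83 and 12.87 and the knockout level 11.06, 11.70 and 11.04, so the channels did not overlap. Wild-type levels that are nearly equal between arrays of an age are those of repeated hybridisations under the assumption of a shared pool, and they carry no spread between wild-type mice.

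**Figure D1:**
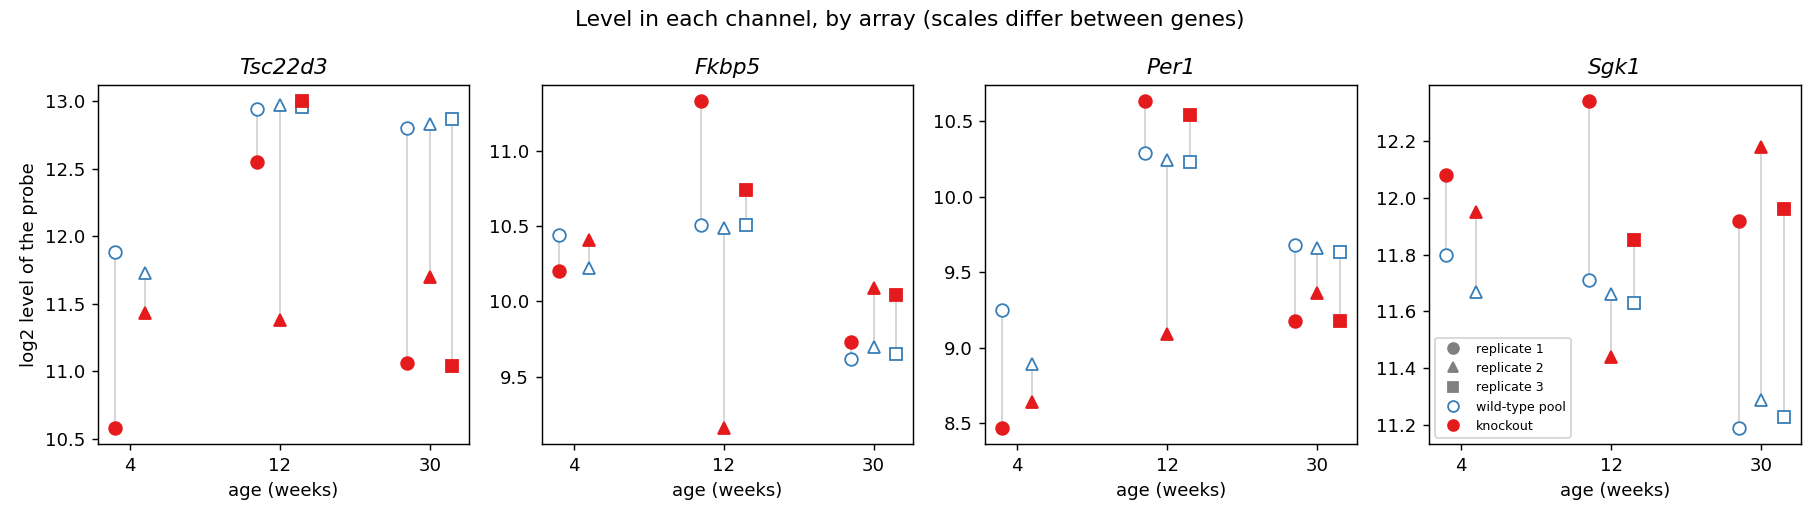
Log2 level (y axis, arbitrary array units) of the brightest probe of Tsc22d3, Fkbp5, Per1 and Sgk1 in the wild-type pool (open blue) and the knockout node (filled red) against age in weeks, with a grey line joining the channels of an array and marker shapes for replicates. For Tsc22d3 the 3 knockout points at 30 weeks lie between 11.04 and 11.70, all under the wild-type points at 12.80 to 12.87.

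Tsc22d3 was measured by 3 probes, all on chromosome X and within 1 kb of each other (mm8). The brightest lies at 135886218 to 135886277 on the minus strand, another begins 126 bases away and the last 558 bases away. Their means at 30 weeks were −1.57 (SD 0.38), −1.21 (SD 0.42) and −1.26 (SD 0.28), and all 3 were below 0 on 7 of 8 arrays and above 0 on replicate 3 of 12 weeks. The 3 probes gave the same order of arrays within 12 weeks and within 30 weeks.

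Sgk1, a kinase that the hormone induces and that regulates sodium channels and T helper cell differentiation, had the opposite sign at 30 weeks. Its log2 ratios were 0.73, 0.88 and 0.74 there, all above 0 and close together, with a mean of 0.78 (SD 0.09, n = 3), a 1.72-fold higher level. They were 0.28 and 0.28 at 4 weeks and 0.62, −0.22 and 0.23 at 12 weeks, so that replicate 2 of 12 weeks was the only array of the 8 below 0. All 3 ratios of 30 weeks lay above all 3 of 12 weeks. The 12-week mean was 0.21 (SD 0.42, n = 3), and 0.42 (SD 0.28, n = 2) without replicate 2. Its probe lies on chromosome 10 at 21689000 to 21689059 on the plus strand (mm8). Another probe under the old name, 100840 bases upstream, was not well above background in either channel on any array.

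Tsc22d3 and Sgk1, which both are textbook targets of the receptor, lay on opposite sides of their pools at 30 weeks, and their promoters are shown for that reason. The sequences are RefSeq's (GRCm38.p6), 5′ to 3′, for the 250 bases before a transcription start. The core of the palindromic response element was searched as ACANNNTGT on both strands in windows from 250 bases before to 50 bases after each start, of which 6.85% of 32851 held a match. A single arm of the element, searched as AGAACA, was in 19% of windows, and a match of the arm can overlap one of the core. The E-box CACGTG, bound by the clock proteins, was in 7.15%. Windows of 8 members were searched, 17 windows in all. No window of Nr3c1 or Zbtb16 was searched, so nothing is said of their promoters. Among these windows the core was found in 2, both of Sgk1, which had 6 of the windows while Tsc22d3 had 3 and the others 1 or 2 each. In the one at chr10:21993640-21993889 (plus strand) it begins 186 bases before the start, capitals mark it, and matches of the arm overlap it on both strands, beginning 189 and 180 bases before the start. In the Tsc22d3 promoter at chrX:140600523-140600772 (minus strand) capitals mark an arm (TGTTCT, its reverse strand), 185 bases before the start. In the Per1 promoter at chr11:69098699-69098948 (plus strand) they mark an E-box 166 bases before the start.
Sgk1: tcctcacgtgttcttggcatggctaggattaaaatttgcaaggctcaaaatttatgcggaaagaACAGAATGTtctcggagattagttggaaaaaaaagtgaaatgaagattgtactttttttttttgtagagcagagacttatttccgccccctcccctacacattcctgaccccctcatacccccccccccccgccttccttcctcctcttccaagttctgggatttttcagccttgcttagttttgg
Tsc22d3: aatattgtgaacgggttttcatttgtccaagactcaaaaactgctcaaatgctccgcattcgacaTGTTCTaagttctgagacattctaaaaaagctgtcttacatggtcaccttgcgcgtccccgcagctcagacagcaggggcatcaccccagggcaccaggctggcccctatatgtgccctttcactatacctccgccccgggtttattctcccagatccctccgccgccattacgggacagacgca
Per1: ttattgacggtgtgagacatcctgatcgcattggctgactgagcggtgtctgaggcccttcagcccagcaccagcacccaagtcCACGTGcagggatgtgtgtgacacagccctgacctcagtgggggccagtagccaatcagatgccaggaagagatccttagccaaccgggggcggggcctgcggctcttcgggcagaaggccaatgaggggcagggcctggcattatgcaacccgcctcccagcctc
A match describes these letters only, since binding sites of the receptor often lie outside such windows. An E-box was also in the same Sgk1 window, 246 bases before the start, and in the Fkbp5 promoter, 169 bases before its start.

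Fkbp5, a co-chaperone that lowers the affinity of the receptor for its hormone and is itself induced by it, gave different answers by probe. With the brightest probe, on chromosome 17 at 28165639 to 28165698 (minus strand, mm8), the log2 ratios were −0.24 and 0.20 at 4 weeks, 0.82, −1.33 and 0.23 at 12 weeks, and 0.10, 0.39 and 0.39 at 30 weeks. The ratio was thus above 0 on all 3 arrays of 30 weeks (mean 0.30, SD 0.17), and replicate 2 of 12 weeks stood 1.33 below its pool. At 12 weeks the mean was −0.09 (SD 1.11, n = 3), or 0.53 (SD 0.42, n = 2) without replicate 2. The other probes lie 38117 and 37402 bases away, downstream on the minus strand. The farther of these had ratios from −0.83 to −0.20, below 0 on 8 of 8 arrays, with a mean of −0.57 (SD 0.20) at 30 weeks. The nearer had a mean of −0.28 (SD 0.20) at 30 weeks and was below 0 on 7 arrays and 0.00 on replicate 2 of 4 weeks. So at 30 weeks the sign of Fkbp5 depended on the probe, and the mean over its 3 probes was −0.18. All 3 probes had their lowest ratio on replicate 2 of 12 weeks. With median centring the brightest probe had means of 0.84, 0.55 and 0.56 at 4, 12 and 30 weeks.

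**Figure D2:**
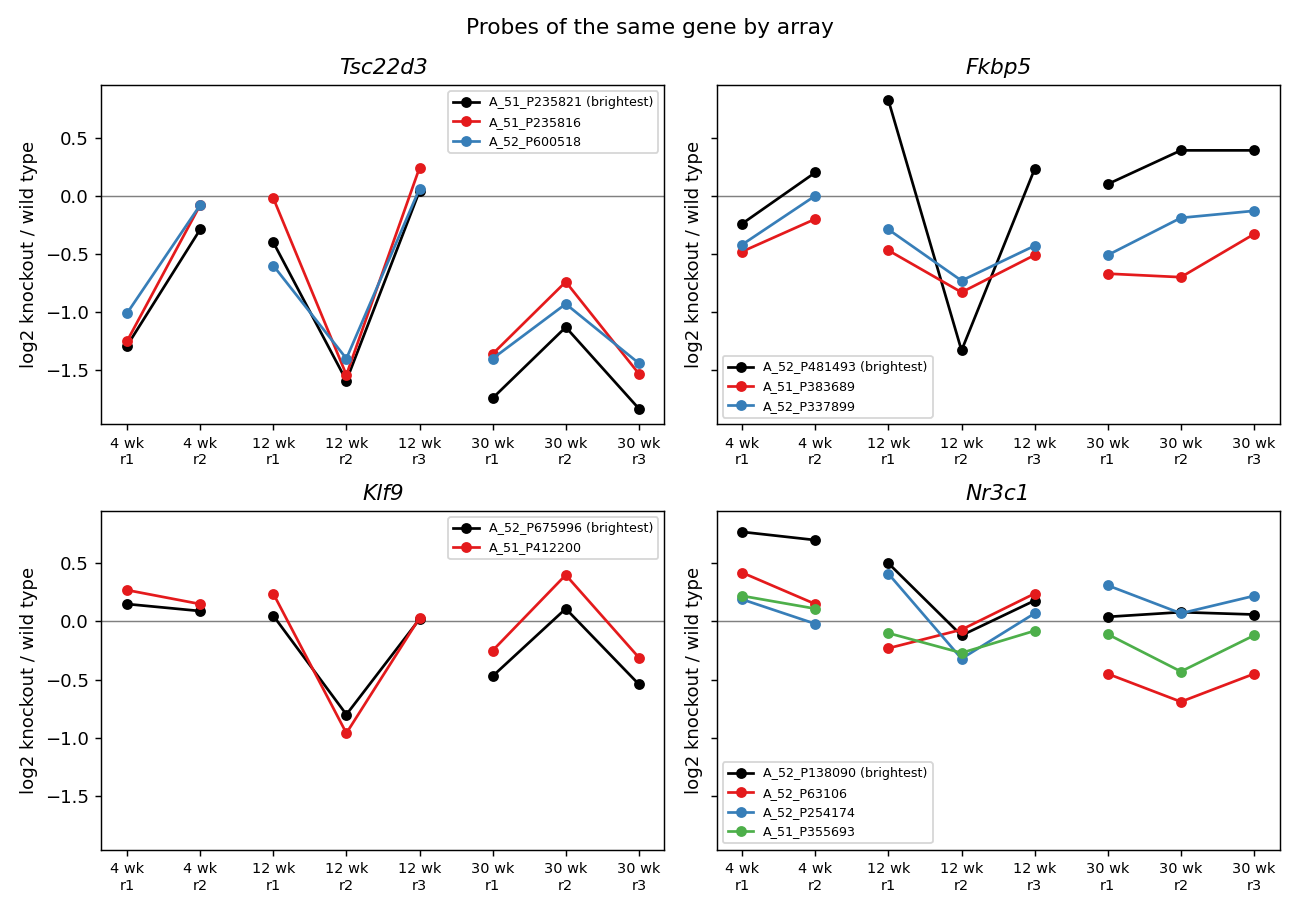
Log2 ratio of knockout over wild type (y axis) on each array (x axis, age and replicate) for every probe above the filter of Tsc22d3, Fkbp5, Klf9 and Nr3c1, with lines joining arrays of an age. The Tsc22d3 probes run together, the brightest Fkbp5 probe (black) lies above 0 at 30 weeks where the other Fkbp5 probes lie below it, and the Nr3c1 probes spread from −0.53 to 0.20 in their 30-week means.

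Per1, a repressor of the circadian clock that glucocorticoids induce rapidly, had log2 ratios of −0.78 and −0.26 at 4 weeks, 0.34, −1.15 and 0.31 at 12 weeks and −0.51, −0.30 and −0.46 at 30 weeks. Both 4-week nodes and all 3 nodes of 30 weeks lay below their pools, while at 12 weeks replicates 1 and 3 lay above and replicate 2 far below. The means were −0.52 (SD 0.37, n = 2), −0.17 (SD 0.85, n = 3) and −0.42 (SD 0.11, n = 3), and without replicate 2 the 12-week mean was 0.32 (SD 0.02, n = 2). In the wild-type channel Per1 stood at 10.23 to 10.29 at 12 weeks and at 9.63 to 9.68 at 30 weeks, ranges that do not overlap. This was not particular to Per1. The brightest probe of every other measured member but Nr3c1 (10.43 to 10.53 and 10.41 to 10.47) had no overlap either, with Cdkn1a higher at 30 weeks. The share over all genes was not counted. Under the assumption of a shared pool these levels are repeated hybridisations with no spread between mice. Replicates 2 and 3 of 30 weeks also had another slide than the 12-week arrays. A difference between the pools of the ages was not tested. With median centring the means were 0.16, 0.45 and −0.18. Its probe lies on chromosome 11 at 68925571 to 68925630 (plus strand, mm8).

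Klf9 is a zinc finger repressor that the receptor induces and that feeds back on other targets. Its ratios were 0.15 and 0.09 at 4 weeks, 0.05, −0.80 and 0.02 at 12 weeks, and −0.47, 0.11 and −0.54 at 30 weeks. Replicate 2 of 12 weeks was again the lowest, and at 30 weeks replicate 2 had another sign than replicates 1 and 3. The 30-week mean was −0.30 (SD 0.36, n = 3), smaller than its SD, and the 12-week mean of −0.24 became 0.30 with median centring. A second Klf9 probe, 801 bases along chromosome 19, had a 30-week mean of −0.06 (SD 0.40) with the same signs on every array.

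Nr3c1 encodes the glucocorticoid receptor itself. With the brightest of its 4 probes, on chromosome 18 at 39536939 to 39536998 (minus strand, mm8), the log2 ratio was 0.77 and 0.70 at 4 weeks, a 1.67-fold higher level. It was 0.50, −0.12 and 0.18 at 12 weeks and 0.04, 0.08 and 0.06 at 30 weeks, so the 4-week nodes stood above all others. The other 3 probes did not show this size: their 4-week means were 0.29 (SD 0.19), 0.09 (SD 0.15) and 0.16 (SD 0.08). The last of these was not well above background in wild type on either 4-week array, nor in the knockout on replicate 2. The probe with 0.09 was not well above background in wild type on replicate 2 of 4 weeks. At 30 weeks the 4 probes had means of 0.06, −0.53, 0.20 and −0.22, with 2 signs among them. The receptor's level is therefore given by probe and not as a single value, and the mean over the probes was 0.32 at 4 weeks and −0.12 at 30 weeks.

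Hsd11b1, the enzyme that regenerates active corticosterone from its inactive form inside cells, was below its pool on 8 of 8 arrays after loess, a sign that turned at every age with median centring. The ratios were −0.39 and −0.14 at 4 weeks, −0.56, −0.36 and −0.27 at 12 weeks and −0.15, −0.18 and −0.21 at 30 weeks. The 3 values of 12 weeks all lay below those of 30 weeks, with means of −0.40 (SD 0.15) and −0.18 (SD 0.03). It was the 1 member for which replicate 2 was not the lowest of the 12-week arrays. With median centring its means were 0.61, 0.25 and 0.15 at 4, 12 and 30 weeks, of which the 12-week one alone lay under the median of all genes.

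Cdkn1a encodes p21, an inhibitor of the cell cycle that p53 and glucocorticoids induce, and 10 spots per array measured it. Its ratios were −0.13 and −0.07 at 4 weeks, 0.46, −0.10 and 0.07 at 12 weeks and −0.13, −0.15 and −0.14 at 30 weeks. All 3 nodes of 30 weeks lay just under their pool and under every node of 12 weeks, with a mean of −0.14 (SD 0.01, n = 3). With median centring the means of Cdkn1a were 0.23, 0.59 and 0.04, so its sign turned at 4 and 30 weeks. Ddit4, known as REDD1, which restrains mTORC1 in response to stress, hypoxia and glucocorticoids, differed in sign between nodes of the same age. It had −0.17 and 0.31 at 4 weeks, 0.35, −1.19 and 0.30 at 12 weeks and −0.03, 0.77 and −0.50 at 30 weeks, and the SDs of 0.34, 0.88 and 0.64 exceed the size of the means. Its 12-week mean of −0.18 became 0.74 with median centring.

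**Figure D3:**
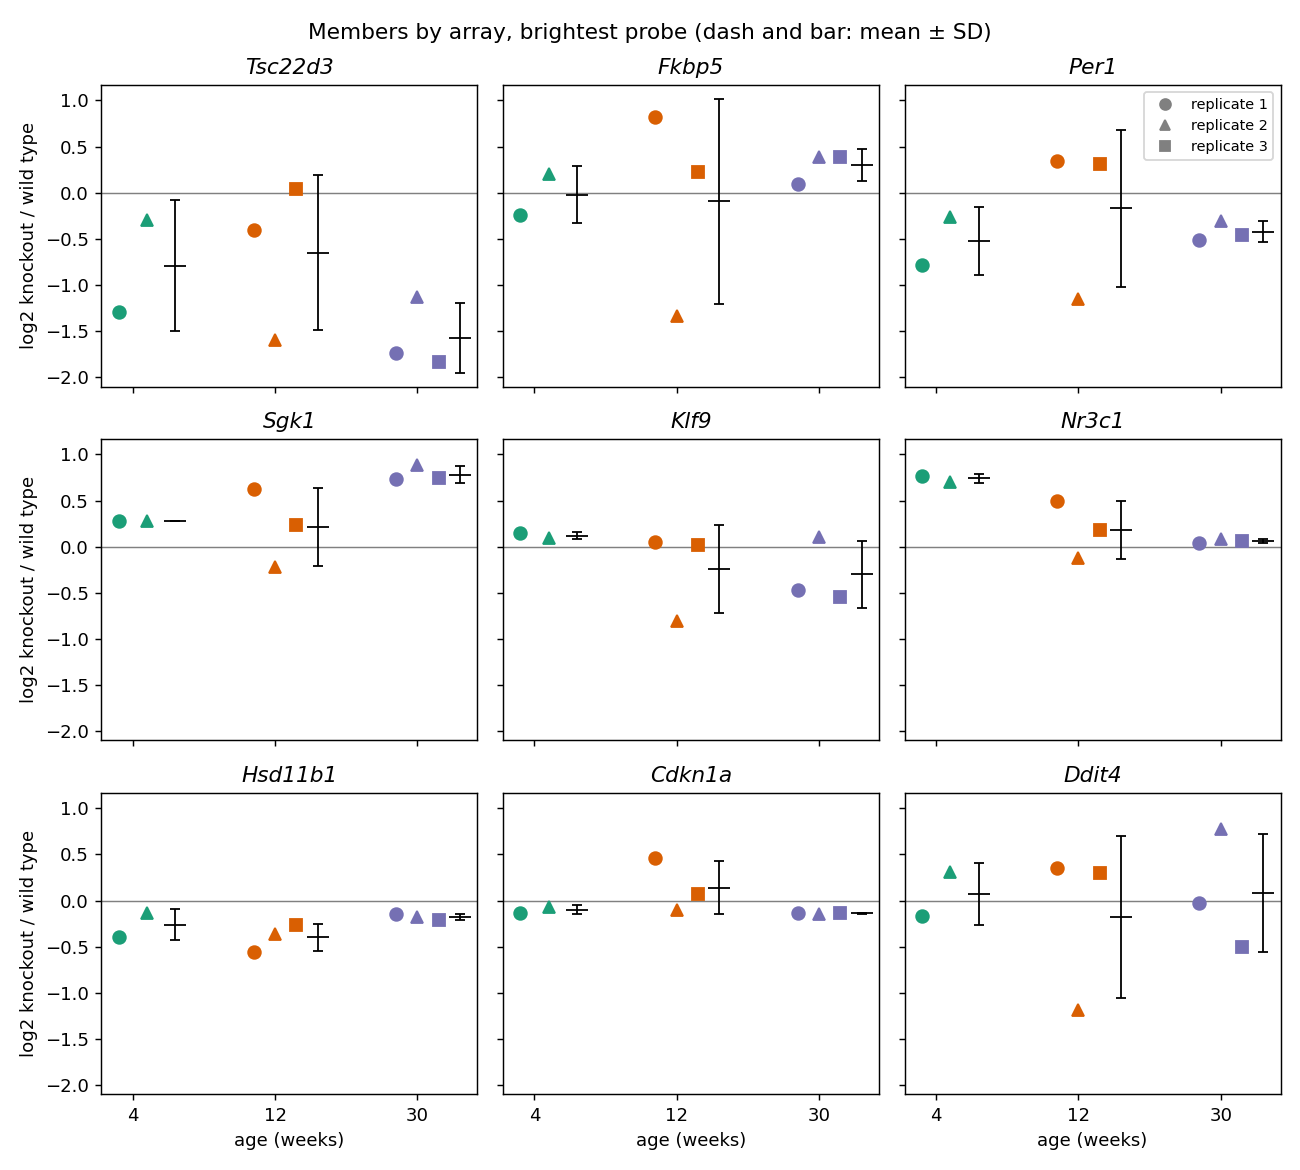
Log2 ratio of knockout over wild type (y axis) of the 9 measured members against age in weeks, with 1 marker per array, shapes for replicates, and the mean ± SD of an age as a black dash with a bar. Replicate 2 of 12 weeks (orange triangle) is below 0 in all 9 panels, down to −1.59 for Tsc22d3 (with median centring in 5 of the 9), and the 30-week points of Tsc22d3 and Sgk1 lie on opposite sides of 0.

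Counted over the 9 genes, limma with Benjamini-Hochberg adjustment over all genes called 1 member higher at 4 weeks (Nr3c1), where 22.7% of all genes were called and 15.3% were called higher. At 12 weeks it called 1 member lower (Hsd11b1), where 2.61% of all genes were called and 1.37% called lower. At 30 weeks it called 1 higher (Sgk1) and 1 lower (Tsc22d3), where 39.1% of all genes were called, 20.7% higher and 18.4% lower. In the difference of 30 minus 12 weeks it called 0 members, against 0.777% of genes. These ratios chose the members, so nothing is read from the counts. The median over the members was −0.02, −0.17 and −0.14 at 4, 12 and 30 weeks beside medians of 0.02, 0.02 and 0.03 over all genes. At 30 weeks 4 members were below 0 on all 3 arrays and 3 above 0 on all 3, where 32.7% and 38% of all genes were. Between 12 and 30 weeks the arrays did not overlap for 3 members, Sgk1 and Hsd11b1 higher and Cdkn1a lower at 30 weeks, where 12.8% of all genes were higher and 13.2% lower in this way.

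By array, the set moved most in replicate 2 of 12 weeks. All 9 members were below 0 there, with ratios from −1.59 to −0.10 and a median of −0.80, while 46.6% of all genes were below 0. On 4 of the 9 the ratio was under −1, as it was for 0.875% of all genes. In replicates 1 and 3 the member medians were 0.35 and 0.18, with 7 and 8 of 9 above 0, where 46.4% and 46.9% of all genes were below 0. The 9 members held 8 for which replicate 2 was the lowest of the 12-week arrays, where 35.9% of all genes had that order. The scanner's log ratio, the processed signals and the matrix also gave 9 of 9 below 0 in replicate 2. With median centring 5 of the 9 were below 0 there and 7 below the median of all genes, with a member median of −0.24 beside 1.00 and 0.76 in replicates 1 and 3.

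Heat-shock and immediate-early transcripts, which cells raise soon after protein damage or a growth stimulus, moved with the members on these arrays, and they were listed after the values were seen. Of the heat-shock genes, 8 of 9 were tested, with medians of 1.73, −1.41 and 1.70 in replicates 1, 2 and 3 of 12 weeks, and Hspa1a, the inducible HSP70, had ratios of 2.70, −5.26 and 2.83. Of the immediate-early genes all 10 were tested, with medians of 1.04, −0.63 and 1.22, and Fos, a subunit of AP-1, had 1.06, −2.16 and 1.71. At 4 and 30 weeks both lists had medians between −0.12 and 0.28. The T cell markers had medians of −0.46, 0.13 and 0.05, the B cell markers −0.51, 0.36 and −0.28 and the fat cell markers −1.53, −1.60 and −0.02 at 12 weeks. The innate-like T and NK cell markers had 0.15, −0.14 and −0.15 and the stroma markers −0.06, 0.02 and 0.18. Macrophage markers had −0.24, −0.14 and −0.07 and acinar markers −0.39, 0.23 and 0.68. The member, heat-shock and immediate-early medians were above 0 in replicates 1 and 3 and below 0 in replicate 2, unlike these marker lists. The fat cell markers too were lowest in replicate 2, and the immediate-early genes differed from the members in the order of replicates 1 and 3.

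Cell type markers were also called at the other ages, some lists at a lower share than all genes. At 30 weeks limma called 39.1% of all genes. It called 1 of 7 B cell markers higher and 4 lower (71.4%, median −0.54). Of 7 macrophage markers 1 was higher and 4 lower (71.4%, median −0.36). Of 10 T cell markers 3 were lower (30%, median −0.17), and of 7 reticular stroma markers 2 were higher (28.6%, median 0.34). Of 6 markers of innate-like T and NK cells 2 were higher and 1 lower (50%, median 0.06). At 4 weeks it called 22.7% of all genes. Of 7 stroma markers 3 were higher (42.9%, median 0.31), and of 7 B cell markers 2 were higher (28.6%, median 0.18). Of 6 markers of innate-like T and NK cells 1 was higher and 4 lower (83.3%, median −0.41). Of 7 macrophage markers 3 were higher and 2 lower (71.4%, median 0.10). Of 10 T cell markers 1 was lower (10%), and of 7 fat cell markers 1 was lower (14.3%, median −1.02). The scanner's log ratio, the processed signals, the matrix and the slide block each called 4 of these fat cell markers lower. Without replicate 1 or 3 of 30 weeks 0 of them were called. With median centring none of the lower calls of B cell, macrophage and T cell markers at 30 weeks, or of the innate-like, macrophage, T cell and fat cell markers at 4 weeks, was left, and the stroma markers gave 5 higher at each of these ages. The part of these marker, heat-shock and immediate-early lists, and of the sex-linked difference, in the ratios of the members and of the gene lists below was not tested.

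**Figure D4:**
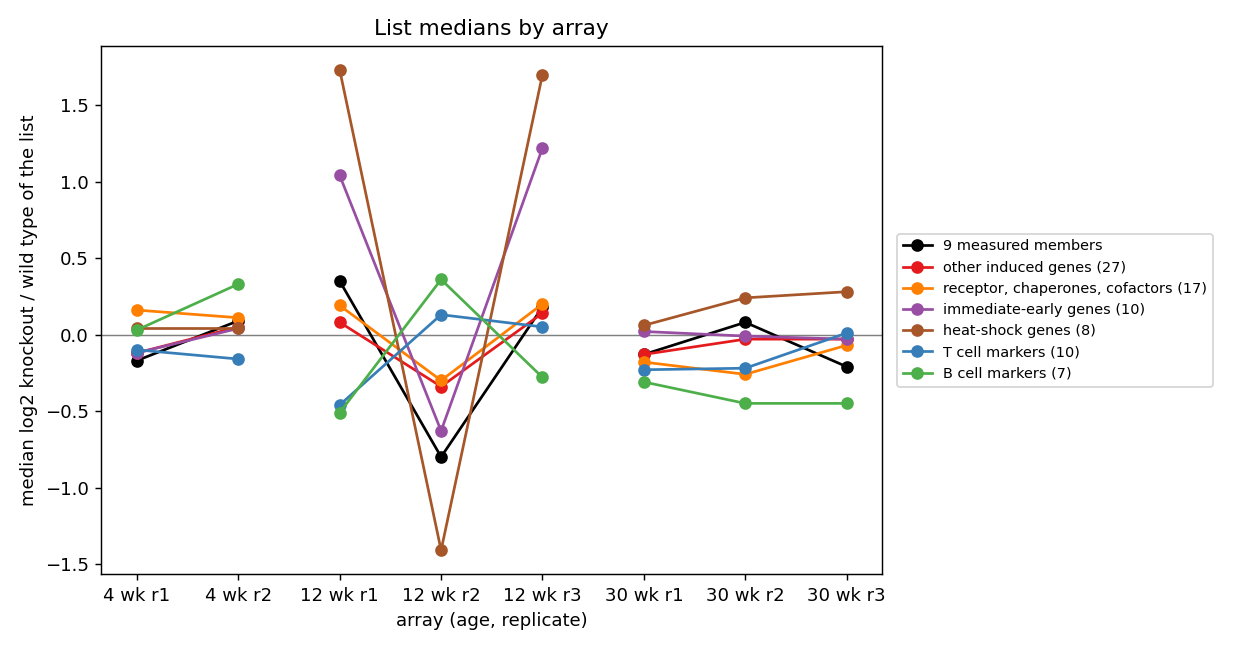
Median log2 ratio of knockout over wild type (y axis) of 7 gene lists on each array (x axis, age and replicate), with lines joining arrays of an age. At 12 weeks the heat-shock, immediate-early and member medians are above 0 in replicates 1 and 3 and below 0 in replicate 2, where the members stand at −0.80 and the heat-shock genes at −1.41.

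The genes most like 3 members were sought by the root-mean-square difference of their log2 ratios over the 8 arrays, among 14308 named genes, as a description. Nearest to Per1 were Sik1, a kinase, and Fkbp4, a co-chaperone of the receptor, each at 0.14, then the HSP90 co-chaperone Stip1 at 0.17, Ahsa1, an activator of HSP90, at 0.20 and Lman2l at 0.24. On replicate 2 of 12 weeks these 5 genes had ratios from −1.46 to −0.73, and on replicates 1 and 3 they were above 0. Nearest to Fkbp5 were Mat2a, which makes S-adenosylmethionine, at 0.18, Enc1 and Map3k6 at 0.23, Chordc1 at 0.24 and Ccdc117 at 0.25. Tsc22d3 had no gene as near: Ypel5 came first at 0.58, followed by Dnajb2 at 0.61, Cisd3 and Tpm2 at 0.62 and Irf7, the interferon regulatory factor, at 0.63. None of these 5 had a ratio below −1 at 4 weeks, as Tsc22d3 did in replicate 1.

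Other genes that glucocorticoids induce were called in both directions at 30 weeks. Of 28 listed genes 27 were tested. At 30 weeks 2 rose and 4 fell, which is 22.2% of the list beside 39.1% of all genes, and the list's median was −0.13. Bmf, which promotes apoptosis, rose by 0.50 ± 0.10 (limma adjusted p = 0.0051, standard error of the fit, as below) and so did Bcl2l11, which encodes the apoptosis mediator BIM (0.31 ± 0.09, adjusted p = 0.0292). Txnip, a thioredoxin inhibitor and a sensor of glucose use, fell by 0.57 ± 0.10 (adjusted p = 0.00334), Arrdc2 of the same arrestin family by 0.56 ± 0.11 (adjusted p = 0.00465) and Il7r, the interleukin 7 receptor of naive T cells, by 0.38 ± 0.08 (adjusted p = 0.008). Pdk4, which turns fuel use from glucose to fat, was the other gene that fell (−0.51 ± 0.17, adjusted p = 0.0387). The Bcl2l11 call was lost without any one of the 3 arrays and in the mean over its probes, that of Il7r without replicate 3, and those of Txnip, Arrdc2 and Il7r with median centring, which called 3 of the list higher and 0 lower.

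At 4 weeks 5 of the 27 rose and 1 fell, 22.2% of the list beside 22.7% of all genes. Rgs2, which damps G protein signalling, rose by 0.81 ± 0.09 (limma adjusted p = 0.00112), Il7r by 0.57 ± 0.10 (adjusted p = 0.00653) and Bcl2l11 by 0.60 ± 0.11 (adjusted p = 0.00762). Anxa1, an anti-inflammatory annexin, and Sesn1 also rose (0.70 ± 0.14 and 0.43 ± 0.11), and Pik3ip1, an inhibitor of PI3 kinase, fell by 0.48 ± 0.11 (adjusted p = 0.0162). The scanner's log ratio called 6 higher and 4 lower, and median centring 12 higher and 0 lower. Without replicate 1 the count at 4 weeks was 1, and the calls of Il7r, Bcl2l11 and Pik3ip1 were also lost in the mean over their probes. Il7r was thus above its pool at 4 weeks and below it at 12 weeks, when it fell by 0.54 ± 0.08 (adjusted p = 0.0285), and at 30 weeks. With median centring its 12-week ratio was 0.09.

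At 12 weeks Il7r and Il1r2, the decoy receptor of interleukin 1, which rose by 0.35 ± 0.06 (limma adjusted p = 0.0389), were the 2 genes called, 7.41% of the list beside 2.61% of all genes. The call of Il1r2 was lost under 11 of the 18 alternatives and that of Il7r under 7. On replicate 2 of 12 weeks 22 of the 27 were below 0, with a median of −0.34, against 13 and 10 on replicates 1 and 3, and with median centring 11 were below 0 there, against 4 and 2. Errfi1, a feedback inhibitor of EGF receptor signalling, had 2.08, −2.54 and 1.97, and Dusp1, the phosphatase that inactivates stress kinases, 1.94, −1.31 and 1.96. Leaving out replicate 2 left 2 arrays at 12 weeks. The count then rose to 7, of which 6 were higher, beside 10.1% of all genes. Dusp1 stood at 1.95 ± 0.15 (limma adjusted p = 0.00106) and Errfi1 at 2.03 ± 0.12 (adjusted p = 0.000565). Both were named after their contrast with replicate 2 was seen, so their p-values are given as a description. Median centring called 11 higher and 0 lower at 12 weeks, and slide as a random block 5 higher and 9 lower. The 12-week result for this list thus rests on the scaling and on whether that node is counted. In the difference of 30 minus 12 weeks limma called 0 of the 27 beside 0.777% of all genes, with 5 at an unadjusted p under 0.05. Without replicate 2 of 12 weeks it called 3 there, beside 1.14% of all genes.

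**Figure D5:**
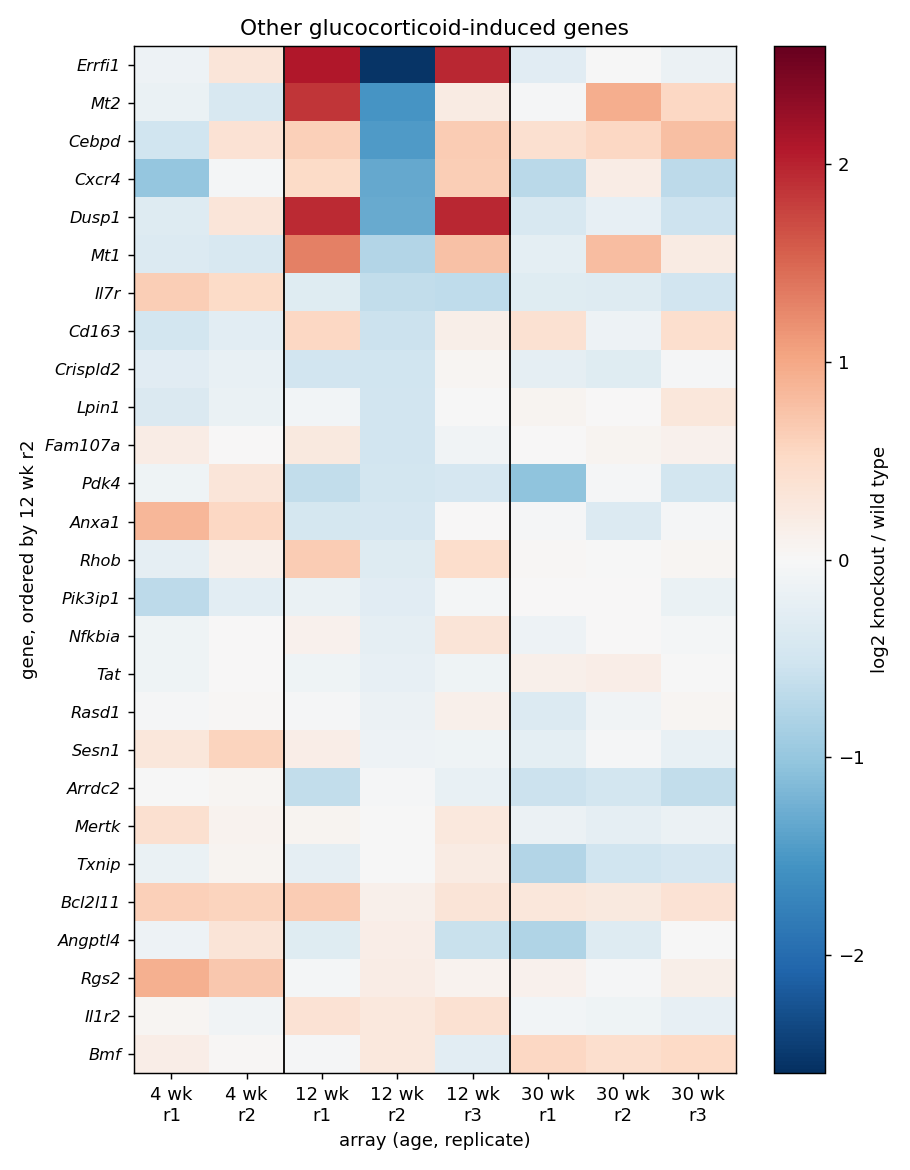
Log2 ratio of knockout over wild type (colour, red higher and blue lower in the knockout) of the 27 tested genes of the list of other glucocorticoid-induced genes (rows, ordered by replicate 2 of 12 weeks) on each array (columns, age and replicate). In replicate 2 of 12 weeks 22 of 27 are below 0 (11 with median centring), Errfi1 at −2.54 lowest, whereas Errfi1 and Dusp1 reach 1.94 to 2.08 in replicates 1 and 3.

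Of the chaperones, cofactors and enzymes that serve the receptor, 17 of 18 were tested. At 30 weeks 3 rose and 4 fell, 41.2% of the list beside 39.1% of all genes. Bag1, which binds HSP70 and represses the receptor, fell by 0.96 ± 0.13 (limma adjusted p = 0.00138), Ptges3, the p23 co-chaperone that stabilises hormone binding, by 0.71 ± 0.21 (adjusted p = 0.0266) and H6pd, which makes the cofactor that Hsd11b1 needs, by 0.45 ± 0.08 (adjusted p = 0.00378). The corepressor Ncor1 was the other that fell (−0.35 ± 0.11, adjusted p = 0.0297). The coactivators Ncoa3 (0.39 ± 0.09, adjusted p = 0.0112) and Ncoa1 (0.21 ± 0.07, adjusted p = 0.0413) and the corepressor Nrip1 (0.28 ± 0.09, adjusted p = 0.0392) rose. The Bag1 call held under all 18 alternatives, those of Ptges3 and Nrip1 were lost without any one 30-week array, those of Ncoa3 and Ncoa1 without replicate 1 or 3, and those of H6pd and Ptges3 with median centring. At 4 weeks 3 rose and 0 fell, 17.6% of the list beside 22.7% of all genes: the cyclophilin Ppid (0.92 ± 0.20, adjusted p = 0.0139), which was lost without either array of 4 weeks, Ncoa2 (0.40 ± 0.09, adjusted p = 0.0185) and Ncoa1 (0.32 ± 0.09, adjusted p = 0.0305), which both were lost without replicate 1. In the mean over their probes the calls of Ncoa2, Ncoa3, Nrip1 and Ptges3 were lost. At 12 weeks limma called 0 of the 17, with 2 at an unadjusted p under 0.05, and 4 were called higher without replicate 2, where 10.1% of all genes were called, Hsp90aa1 leading with 1.12 ± 0.16 (adjusted p = 0.0121). In the difference of 30 minus 12 weeks 0 of the 17 were called, beside 0.777% of all genes. Without replicate 2 of 12 weeks 0 were higher and 4 lower there, beside 1.14% of all genes. With median centring 12 were called higher at 12 weeks, 13 higher at 4 weeks, and 6 higher and 1 lower at 30 weeks, and the slide block gave 4 higher and 2 lower at 12 weeks.

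Inflammatory genes that the receptor represses gave 0 calls of 10 tested at each age and in the difference. Of all genes 22.7%, 2.61% and 39.1% were called at 4, 12 and 30 weeks and 0.777% in the difference. At an unadjusted p under 0.05 the list had 0, 2, 1 and 0 in the same order. Here too replicate 2 decided 12 weeks: the chemokine Cxcl1 had ratios of 2.27, −1.13 and 3.02 and the chemokine Ccl2 2.33, −2.47 and 2.30. Without that node limma called 6 higher and 1 lower of 10 beside 10.1% of all genes, among them Cxcl1 at 2.64 ± 0.17 (adjusted p = 0.000746). Cxcl1 was named after its values were seen, and 2 arrays of 12 weeks were left, so its p-value is a description. At 30 weeks limma then called 3 higher and 1 lower, beside 43.2% of all genes. In the difference it called 0 higher and 2 lower, beside 1.14% of all genes. Other settings gave calls as well: median centring 6 higher and 1 lower at 12 weeks and 1 higher at 4 weeks, and the slide block 2 higher and 1 lower at 12 weeks and 1 higher at 30 weeks. The mean of probes gave 2 lower and the replicate block 1 higher at 30 weeks, and the scanner's log ratio 1 lower at 4 weeks. In replicates 1 and 3 of 12 weeks the median ratio of the repressed list was 0.45 and 0.43, and that of the other induced genes 0.08 and 0.14.

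Clock genes, with which Per1 works, had 3 rises and 2 falls among 17 at 30 weeks (29.4% beside 39.1% of all genes). Clock itself, a core activator, rose by 0.81 ± 0.13 (limma adjusted p = 0.00215), the repressor Nfil3 by 0.67 ± 0.18 (adjusted p = 0.0207) and Ciart by 0.41 ± 0.11 (adjusted p = 0.0204). The repressor Cry2 fell by 0.50 ± 0.09 (adjusted p = 0.00398) and the nuclear receptor Rora by 0.51 ± 0.10 (adjusted p = 0.00488). At 4 weeks Clock (0.60 ± 0.15, adjusted p = 0.0261) and its partner Arntl (0.42 ± 0.09, adjusted p = 0.0148) rose and the output gene Dbp fell by 1.17 ± 0.23 (adjusted p = 0.0083), 17.6% of the list beside 22.7% of all genes. The Clock call at both ages was lost in the mean over its probes, those of Nfil3 and Ciart without any one 30-week array, those of Cry2, Rora, Ciart and Dbp with median centring, and those of Clock, Arntl and Dbp at 4 weeks without replicate 1. At 12 weeks 0 of 17 were called, with 5 at an unadjusted p under 0.05, and 4 were called higher without replicate 2, beside 10.1% of all genes, 5 higher and 1 lower with median centring and 3 higher and 5 lower with the slide block.

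The p53 targets, to which Cdkn1a belongs, split in sign. Of 16 tested, 3 rose and 2 fell at 30 weeks (31.2% beside 39.1% of all genes): Zmat3 rose by 0.70 ± 0.12 (limma adjusted p = 0.00269), the cyclin Ccng1 by 0.39 ± 0.09 (adjusted p = 0.00902) and the death receptor Fas by 0.23 ± 0.08 (adjusted p = 0.0496), and Bax, an activator of apoptosis, fell by 0.99 ± 0.14 (adjusted p = 0.00149) and Aen by 0.33 ± 0.06 (adjusted p = 0.00334). The calls of Zmat3 and Bax held under all 18 alternatives, that of Ccng1 was lost without replicate 1, that of Fas without any one 30-week array, and that of Aen with median centring. At 4 weeks 3 rose and 3 fell, 37.5% of the list beside 22.7% of all genes: Trp53inp1 (0.89 ± 0.11, adjusted p = 0.00155), Ccng1 (0.70 ± 0.11), Fas (0.62 ± 0.10), Bbc3, which encodes PUMA (−0.72 ± 0.13, adjusted p = 0.00571), Aen (−0.35 ± 0.07) and Phlda3 (−0.47 ± 0.12). All 6 were lost without replicate 1, and the 3 falls reversed with median centring. At 12 weeks Phlda3 (−0.51 ± 0.10, adjusted p = 0.0413) and Bbc3 (−0.49 ± 0.10, adjusted p = 0.0492) fell, 12.5% of the list beside 2.61% of all genes, calls that were lost under 10 and 16 of the 18 alternatives. With median centring 10 were called higher and 0 lower at 12 weeks, and with the slide block 7 higher and 3 lower. Without replicate 2 of 12 weeks 3 were called higher and 2 lower at 12 weeks, beside 10.1% of all genes. In the difference of 30 minus 12 weeks 0 were then called higher and 1 lower, beside 1.14% of all genes.

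Genes of the integrated stress and hypoxia response, to which Ddit4 belongs, had 3 rises and 4 falls among 15 at 30 weeks (46.7% beside 39.1% of all genes). Atf4, the transcription factor at the centre of the integrated stress response, fell by 0.76 ± 0.10 (limma adjusted p = 0.0014) and its target Ddit3, which encodes CHOP, by 0.62 ± 0.11 (adjusted p = 0.00341), and both held under all 18 alternatives. Ndrg1 (−0.25 ± 0.07) and Pfkfb3 (−0.33 ± 0.11) fell as well, and Ndrg1 stood at 0.14 with median centring. Glucose transporter Slc2a1 (0.43 ± 0.11, adjusted p = 0.013), the growth factor Vegfa (0.32 ± 0.07, adjusted p = 0.0102) and the peptide hormone Adm (0.28 ± 0.08, adjusted p = 0.0196) rose, and all 3 were lost without replicate 1. At 4 weeks Vegfa rose by 0.59 ± 0.09 (adjusted p = 0.00326) while Ankrd37 (−0.55 ± 0.15), Atf4 (−0.41 ± 0.13) and Ndrg1 (−0.36 ± 0.09) fell, calls that were all lost without replicate 1 and, for the falls, reversed with median centring. These 4 are 26.7% of the list beside 22.7% of all genes. At 12 weeks 1 rose, 6.67% of the list beside 2.61% of all genes, Adm (0.45 ± 0.08, adjusted p = 0.032), and the call was lost without replicate 1 or 3. With median centring 10 were called higher and 0 lower at 12 weeks, and with the slide block 3 higher and 4 lower. Without replicate 2 of 12 weeks 2 were called higher and 0 lower at 12 weeks, beside 10.1% of all genes. In the difference of 30 minus 12 weeks 0 were then called higher and 2 lower, beside 1.14% of all genes.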

How the data were processed

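Each deposited scanner file gives brightness (intensity) per spot, as mean signal, median background and processed signal, and a log10 ratio of red over green, per the file headers (Agilent Feature Extraction 9.5.3.1 at 4 weeks, 10.2.1.3 otherwise). Set against these, the authors' series matrix was a log2 ratio of knockout over wild type. Mean signals received normexp background correction (limma 3.58.1, R 4.3.3, offset 50) and loess within each array, with control spots at weight 0, and a probe's spots were averaged without outliers. A probe stayed if some age had it well above background on all its arrays in one channel, which kept 27463 of 41174, and the brightest stood for each of 18410 genes. Names came through RefSeq accessions for 24375 probes, symbols for 6301 and synonyms for 2426, and 8072 kept the file's name. The limma fit gave each age its mean over the 8 arrays and tested it two-sided against 0. A gene is called at an adjusted p (Benjamini-Hochberg) under 0.05. Levels are channel values after Aquantile normalisation. The fit was tested on simulated data.

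The members and lists were chosen with earlier results of these data known. Named are all members with every probe, from each list and contrast up to 3 called genes per direction with the smallest p, and the 5 nearest genes of Tsc22d3, Fkbp5 and Per1. Genes that complete a count, the heat-shock and immediate-early genes, and the genes named for replicate 2 of 12 weeks were chosen after their values were seen. P-values measure the spread between these knockout mice only, and without replicate 2 of 12 weeks 2 arrays of that age are left. Alternatives were other background corrections and normalisations, filters, probe summaries, blocks, and leaving out each array. A correction for probe GC content was added after seeing the data.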

Additional observations from a re-analysis of the deposited data

How the results depend on the processing

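Counts of called genes depended on the scaling. For 4, 12 and 30 weeks and the difference of 30 minus 12 weeks they were 4179, 480, 7191 and 143. With the scanner's log ratio the counts at 4 weeks, at 12 weeks and in the difference were 6408, 174 and 5, with processed signals and loess 6417, 162 and 4, and with the series matrix 6493, 180 and 2. With median centring they were 9749, 10307 and 7. Median centring moved the median of all genes to 0.49, 0.41 and 0.15 at 4, 12 and 30 weeks and the calls to 9361, 9700 and 4535 higher against 388, 607 and 614 lower, from 2821, 227 and 3809 against 1358, 253 and 3382. At 4 weeks the lower calls were 2817 of 6408 with the scanner's log ratio, 2870 with processed signals and 2892 with the matrix, and at 12 weeks 69, 63 and 71. The mean of probes gave 313 at 12 weeks. Slide as a random block had a correlation of −0.259, below 0, and gave 6617, 8977 and 2339. Replicate numbers did not pair the arrays, with same-number correlations of −0.08 to 0.24, and the replicate block gave 2752, 314 and 0 at 4 and 12 weeks and in the difference. Leaving out 1 array gave 499 to 5178, 18 to 1852, 3939 to 7953 and 0 to 2765.

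For the other induced genes the counts were 6, 2, 6 and 0. At 4 weeks 10 were called with the scanner's log ratio, with processed signals and with the matrix (6 higher and 4 lower, from 5 and 1), 12 with median centring (0 lower) and 3 with the mean of probes (0 lower). At 12 weeks 0 were called with those first 3, 11 with median centring (0 lower), 14 with the slide block (9 lower) and 1 with the replicate block, and at 30 weeks 3 with median centring (0 lower, from 2 higher and 4 lower). In the difference 1 was called without the filter and 3 with the slide block. Leaving out 1 array gave 1 to 6, 0 to 7, 3 to 8 and 0 to 3.

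With median centring the called ratios below 0 that turned above it were, at 4 weeks, those of Pik3ip1 (0.37), Bbc3 (0.20), Aen (0.42), Phlda3 (0.42), Ndrg1 (0.55), Ankrd37 (0.33) and Atf4 (0.41), at 12 weeks those of Hsd11b1 (0.25), Il7r (0.09), Phlda3 (0.14) and Bbc3 (0.14), and at 30 weeks that of Ndrg1 (0.14). Of the members' ratios that were not called, it turned those of Tsc22d3 (0.11), Fkbp5 (0.84), Per1 (0.16), Hsd11b1 (0.61) and Cdkn1a (0.23) at 4 weeks, of Tsc22d3 (0.12), Fkbp5 (0.55), Per1 (0.45), Klf9 (0.30) and Ddit4 (0.74) at 12 weeks, and of Hsd11b1 (0.15) and Cdkn1a (0.04) at 30 weeks. Under it Tsc22d3 stood at −1.15 and Sgk1 at 1.17 at 30 weeks. Of the 52 named list results, 7 kept their call under all 18 alternatives. The cause of these changes was not tested.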
